A study of Mus musculus with 34 samples.

Results

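The genes described here make up the glycolysis and hypoxia response module, a list of 36 mouse symbols chosen by name for their place in the pathway, with earlier results of these data known. Of the 36 listed genes, 35 had a row in the count table of 14107 genes, and Adm was not analysed here. The 35 genes fall into 3 transporters for glucose and lactate, 15 glycolytic enzymes, 3 enzymes that set the flux through glycolysis and the fate of pyruvate, 3 genes of the hypoxia-inducible factor (HIF) and its hydroxylases, and 11 further hypoxia response genes.

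Glycolysis splits glucose into pyruvate, which is either oxidised in mitochondria or reduced to lactate and exported. When oxygen is low, prolyl hydroxylases no longer mark the HIF alpha subunits for degradation, and HIF then binds DNA and raises the transcription of glucose transporters, glycolytic enzymes, angiogenic factors and its own hydroxylases. Tumour cells often run glycolysis at a high rate in ample oxygen as well, and signalling from oncogenic RAS and BRAF is known to feed into the same genes.

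The measurements came from bulk RNA sequencing of the mouse colorectal cancer lines NaJa-D, -F and -G, grown out of peritoneal lavage fluid of recipients that had been transplanted with colon organoids. All lines, and hence also every solvent control, carry the genotype VillinCreERT2::BrafV600E/+::Trp53R172H::APCdel on the C57BL/6N strain, where the Villin promoter had restricted the inducible Cre recombinase to intestinal epithelium. The organoids came from 1 donor, so each line stands for 1 outgrowth and the lines are not replicates of a genotype. Cells received 0.5 µM encorafenib, an inhibitor of mutant BRAF kinase, or a matching amount of DMSO for 1 day or 5 days, with drug or solvent renewed during the longer treatment. This gave 12 groups and 34 libraries, of which 10 groups had 3 libraries, while NaJa-F with encorafenib at day 5 and NaJa-G with DMSO at day 5 had 2 each. No label says that replicates were separate cultures, so p-values measure the spread between these libraries, which may be technical.

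Total counts per library ranged from 46007050 to 80121299. One library, titled NaJa-D DMSO day 1 replicate 3, bears conflicting labels, as its cell line entry reads NaJa-G. It was kept with NaJa-D, its lowest r of log2 CPM across genes with its fellow controls of that line being 0.9946 and its highest with those of NaJa-G 0.9202. Counts of called genes that change without it are given below. Of 7 epithelial markers all were in the table, with Epcam from 65.1 to 1177 CPM, whereas the intestinal genes Vil1 and Cdx2 were as low as 0.285 and 1.14 CPM in the lowest library. Of 5 markers of host immune cells 1 was in the table, namely Cd68 at 3.32 to 7.26 CPM, and of 3 endothelial markers 1, Kdr at 0.164 to 1.36 CPM. Of the 3 mesothelial markers Msln, from 496 to 3514 CPM, and Upk3b, from 0.0402 to 6.40 CPM, were in the table, and Wt1 was not. Both were higher with encorafenib in all 6 comparisons, and their part in the results below was not tested. The mesenchymal genes Vim and Zeb1, with Cdh2 all in the table, ranged from 35.98 to 2930.0 and from 0.818 to 74.6 CPM.

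Abundance stands in CPM, the counts of a gene relative to the library total, after TMM scaling, a method that corrects library sizes for differences in composition. A gene was called when the Benjamini-Hochberg adjusted p of limma, taken over all 14107 genes, was below 0.01. Fold changes are log2 values of the first named group over the second. In bulk RNA, fewer cells that express a gene and less RNA per cell cannot be told apart.

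Levels per kilobase of exon spanned over 3 orders of magnitude among the 35 genes. In NaJa-D with DMSO at day 1, Pkm, the pyruvate kinase of proliferating cells, reached 769 CPM per kilobase. It was followed by Gapdh, the dehydrogenase of the middle of the pathway, at 653, by Ldha, the lactate dehydrogenase subunit that favours lactate formation, at 438, and by the enolase Eno1 at 398 CPM per kilobase. This order depends on the length used, the union of all exons. Per kilobase of the longest transcript Eno1 came second, at 1057, ahead of Gapdh at 821 and Ldha at 799, with Pkm at 1580.4. Slc2a1, the glucose transporter GLUT1, and Slc16a1, the monocarboxylate transporter MCT1, stood at 77.4 and 103 CPM per kilobase. At the lower end were Egln3 at 0.904, Car9 at 0.798, Ankrd37 at 0.520 and the neuronal enolase Eno2 at 0.235 CPM per kilobase. Pkm, Gapdh, Ldha and Eno1 each had far more counts in NaJa-D with DMSO at day 1 than any of the hypoxia response genes. Among the 35 genes, 31 averaged at least 2 log2 CPM. Aldoa, Gapdh, Pgk1, Pgam1 and Ldha have named processed copies in the annotation, and Eno1 has a near-identical copy, Eno1b, so reads of these genes may have been shared between loci.

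**Figure D1:**
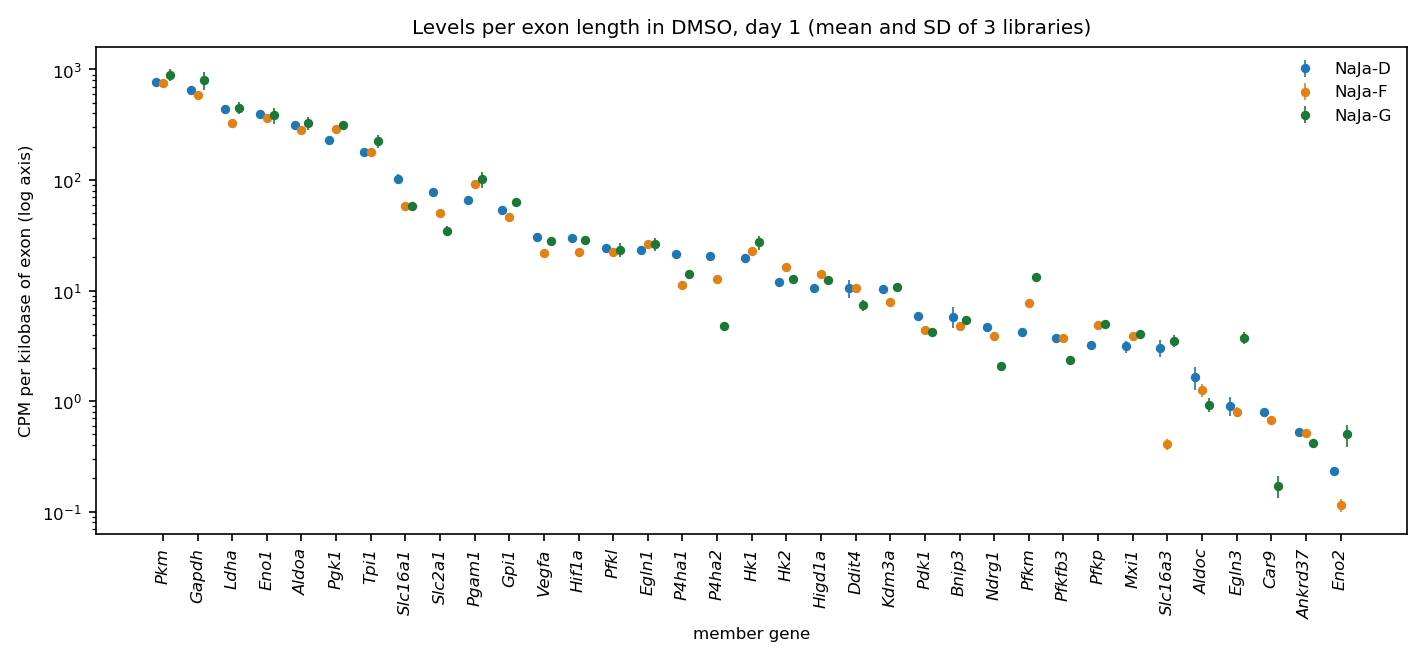
Mean CPM per kilobase of exon (log axis) of the 35 genes in DMSO at day 1, ordered by their level in NaJa-D, with bars for the SD of 3 libraries per line. Pkm is highest in each line, and Slc16a3 in NaJa-F, Car9 in NaJa-G and Egln3 in NaJa-G stand away from the other lines.

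Promoter sequence was examined for the letters of the HIF core motif, ACGTG or GCGTG on either strand, in the 250 bases before each RefSeq start on build GRCm38.p6. At least 1 match was found in 31 of 34 genes with an entry (91.2%), against 61.2% of all table genes with an entry. By promoter the share was 76.9% of 52 for the module and 55.04% of 13082 for the table genes, with 1.53 and 1.28 promoters per gene, and it was 38.6% over all 32851 promoters of the annotation. The palindrome CACGTG, the E-box bound by MYC among others, holds the same letters on both strands and was present in 6 of the 34 genes (17.6%) and in 9.78% of table genes with an entry. A match describes the letters in the window and is not a binding site. Windows are shown for Egln3, the only gene of the module lower with encorafenib in every comparison, for Slc16a1, lower in 5 of 6, and for Bnip3 and Pdk1, which were higher at day 5 than at day 1 in DMSO in every line. Capitals mark the matches, and the windows run in the direction of the gene. They lie at chr12:54203875-54204124 on the minus strand for Egln3, chr3:104638414-104638663 on the plus strand for Slc16a1, chr7:138909507-138909756 on the minus strand for Bnip3 and chr2:71872974-71873223 on the plus strand for Pdk1.
Egln3: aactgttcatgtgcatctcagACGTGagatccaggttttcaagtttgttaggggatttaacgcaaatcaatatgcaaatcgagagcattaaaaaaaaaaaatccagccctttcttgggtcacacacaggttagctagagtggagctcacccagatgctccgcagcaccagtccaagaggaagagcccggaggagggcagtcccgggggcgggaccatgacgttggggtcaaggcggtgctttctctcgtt
Slc16a1: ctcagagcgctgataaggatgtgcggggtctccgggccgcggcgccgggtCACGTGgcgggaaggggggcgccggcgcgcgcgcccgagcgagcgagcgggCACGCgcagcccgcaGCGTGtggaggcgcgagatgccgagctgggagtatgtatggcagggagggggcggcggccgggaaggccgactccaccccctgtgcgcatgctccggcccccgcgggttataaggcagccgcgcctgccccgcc
Bnip3: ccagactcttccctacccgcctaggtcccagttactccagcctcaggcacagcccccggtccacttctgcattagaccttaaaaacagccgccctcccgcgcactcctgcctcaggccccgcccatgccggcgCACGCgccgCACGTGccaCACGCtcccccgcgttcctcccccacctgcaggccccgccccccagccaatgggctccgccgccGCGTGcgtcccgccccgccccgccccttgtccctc
Pdk1: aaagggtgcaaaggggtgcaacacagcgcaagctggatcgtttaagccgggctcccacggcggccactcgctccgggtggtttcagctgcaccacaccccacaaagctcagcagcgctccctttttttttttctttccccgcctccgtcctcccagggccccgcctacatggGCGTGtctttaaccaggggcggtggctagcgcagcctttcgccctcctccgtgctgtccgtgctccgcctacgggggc
The Egln3 window held 1 match, near its upstream end, and the Pdk1 window 1, whereas a further Pdk1 window, at chr2:71874654-71874903, held 0. In Bnip3 and Slc16a1 the matches numbered 5 and 4, counting CACGTG once on each strand.

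The first question was how the module answered BRAF inhibition. Encorafenib lowered more of these genes than it raised, above all in NaJa-D on both days and in NaJa-G at day 5. Over the 6 comparisons with DMSO there were 101 calls, 68 lower and 33 higher. In NaJa-D, 14 genes were lower and 6 higher at day 1, when 21.2% of all genes were lower and 23.7% higher, and 21 were lower and 2 higher at day 5, when 14.7% of all genes were lower and 18.3% higher. In NaJa-F, 5 were lower and 6 higher at day 1 (12% and 17.5% of all genes) and 5 lower and 4 higher at day 5 (8.50% and 9.70% of all genes). In NaJa-G, 10 were lower and 9 higher at day 1 (28.7% and 35.3% of all genes) and 13 lower and 6 higher at day 5 (24.7% and 28.5% of all genes). As shares of the 35 genes, 40.0% and 60.0% were lower in NaJa-D at day 1 and day 5, against 21.2% and 14.7% of all genes in the same fit. In NaJa-G the share lower was 37.1% at day 5, and 28.6% at day 1, close to the 28.7% of all genes. In NaJa-F 14.3% were lower on either day.

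The median log2 fold change of the 35 genes was -0.25 in NaJa-D at day 1 and -0.32 at day 5, -0.05 and then -0.07 in NaJa-F, and -0.09 and then -0.24 in NaJa-G, while the median of all genes lay between -0.02 and 0.04 in the same comparisons. With scaling by library size alone that of the 35 genes was -0.17 in NaJa-D and -0.15 in NaJa-G at day 1, and in NaJa-G also -0.15 with only the groups compared. Within the module, 19 genes were called only lower, 6 only higher, 6 in both directions, and 4 never (Gapdh, Egln1, Ankrd37 and Higd1a). The same counts were not made over all genes, so they describe the module only. Egln3 was the 1 gene lower in all 6 comparisons, a pattern shared by 433 of all genes (3.07%). Of the 101 calls, 72 held when each library of the groups compared was left out in turn. The NaJa-D count at day 5 fell from 23 to 14 without DMSO day 5 replicate 3, with 14 lower and 0 higher, and the NaJa-F count at day 5 from 9 to 5 without encorafenib day 5 replicate 1. The NaJa-D count at day 1 was 20 with or without the library of conflicting labels, with 16 lower and 4 higher without it. It was 26, with 21 lower, without encorafenib day 1 replicate 3, and 11, with 8 lower, when only the groups compared were in the fit. The shares of all genes in these other fits are not given here. The comparison with all genes therefore holds for the main fit only. In NaJa-G, scaling by library size alone gave 15 lower and 9 higher at day 1 and 17 lower and 6 higher at day 5. For NaJa-D at day 1 it gave 13 lower and 6 higher, and moved the share of higher among all called genes from 52.8% to 63.6%.

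**Figure D2:**
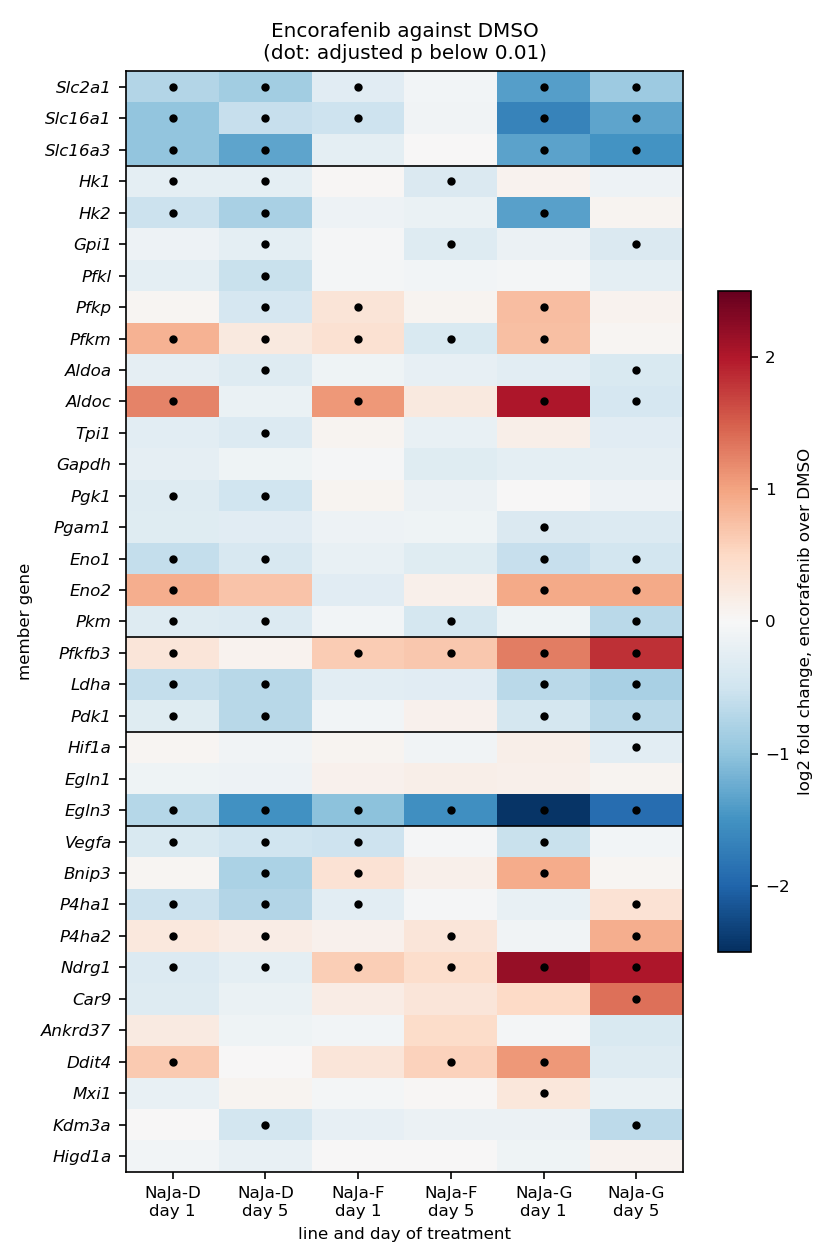
Log2 fold change of encorafenib over DMSO (colour, blue lower and red higher) for the 35 genes in rows, grouped by role, and the 6 combinations of line and day in columns, with a dot where the adjusted p was below 0.01. The transporters and Egln3 are blue in NaJa-D and NaJa-G, while Pfkfb3, Ndrg1 and, at day 1, Aldoc are red in NaJa-G.

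The transporters fell together in NaJa-D and NaJa-G. Slc2a1, the main glucose importer, was at 136, 115 and 115 CPM in the 3 NaJa-G DMSO libraries of day 1 and at 47.003, 45.1 and 48.9 CPM with encorafenib. In NaJa-D it went from 249, 290.2 and 275 CPM to 146, 162 and 184 CPM at day 1, and in NaJa-F from 180.0, 186 and 163 CPM to 146, 146 and 143 CPM. The groups did not overlap in any line at day 1, and NaJa-F moved least. Its log2 fold changes were -0.73 (SE 0.08, adjusted p 9.49e-09) and -0.86 (adjusted p 6.05e-10) in NaJa-D at day 1 and day 5, -0.28 (adjusted p 0.00545) and -0.07 (adjusted p 0.628) in NaJa-F, and -1.37 (SE 0.08, adjusted p 4.00e-15) and -0.91 (adjusted p 5.06e-10) in NaJa-G. The NaJa-F call at day 1 was lost in 5 of 6 fits without 1 library and with RLE scaling.

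Slc16a1, which carries lactate and other monocarboxylates across the membrane, showed the same order of lines. At day 1 the NaJa-G libraries lay at 269, 257 and 248 CPM in DMSO and 82.003, 77.5 and 84.2 CPM with encorafenib. At day 5 they were at 271 and 248 CPM in DMSO and 98.7, 107 and 104 CPM with the drug. Treated NaJa-G cells thus held 0.315 and 0.399 of the control level, with log2 fold changes of -1.67 (adjusted p 9.23e-18) and -1.33 (adjusted p 4.73e-14). In NaJa-D the values were -0.98 (adjusted p 1.06e-11) at day 1 and -0.57 (adjusted p 3.71e-07) at day 5, and in NaJa-F -0.51 (adjusted p 2.05e-06) and -0.09 (adjusted p 0.487).

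Slc16a3, the lactate exporter MCT4 and a known HIF target, was lower in NaJa-D by -0.99 (adjusted p 1.07e-06) at day 1 and -1.32 (adjusted p 8.69e-10) at day 5. In NaJa-G the log2 fold changes were -1.34 (adjusted p 5.34e-10) and -1.49 (adjusted p 5.64e-10). In NaJa-F, where the gene was at most 3.07 CPM in any library, the values were -0.25 (adjusted p 0.450) and 0.01 (adjusted p 0.985).

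Among the 15 glycolytic enzymes, 5 were lower and 3 higher in NaJa-D at day 1, and 10 lower and 1 higher at day 5. The counts were 0 lower and 3 higher, then 4 lower and 0 higher, in NaJa-F, and 3 lower and 4 higher, then 5 lower and 1 higher, in NaJa-G. In NaJa-G at day 1 these enzymes had 20% lower and 26.7% higher, below the 28.7% and 35.3% of all genes. In NaJa-D at day 5 they had 66.7% lower and 6.67% higher, beside 14.7% and 18.3% of all genes. The shares of single roles were not tested against those of all genes. Hk2, the inducible hexokinase that starts glycolysis, was at 81.5, 73.2 and 73.1 CPM in NaJa-G with DMSO at day 1 and at 29.9998, 29.5 and 29.1 CPM with encorafenib. At day 5 the same line held 52.5 and 46.9 CPM in DMSO and 51.5, 51.9 and 52.7 CPM with the drug, so the libraries separated at day 1 only. The log2 fold change was -1.36 (adjusted p 3.61e-18) at day 1 and 0.07 (adjusted p 0.338) at day 5 in NaJa-G, and -0.53 (adjusted p 6.21e-09) and -0.82 (adjusted p 1.57e-12) in NaJa-D. Hk1, the constitutive hexokinase, was lower in NaJa-D on both days and in NaJa-F at day 5 (-0.37 (adjusted p 0.000827)), but its 2 calls in NaJa-D were each lost in at least 3 of 6 fits without 1 library.

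No other glycolytic enzyme fell as far as Hk2 did in NaJa-G at day 1. Eno1 was lower by -0.60 (adjusted p 1.45e-05) and -0.41 (adjusted p 0.00197) in NaJa-D and by -0.58 (adjusted p 1.53e-05) and -0.46 (adjusted p 0.000952) in NaJa-G. Pkm was lower at day 5 by -0.34 (adjusted p 0.00277) in NaJa-D, -0.43 (adjusted p 0.00136) in NaJa-F and -0.68 (adjusted p 1.31e-06) in NaJa-G, and in NaJa-D also at day 1 (-0.32). Each Pkm call in NaJa-D was lost in 4 of 6 fits without 1 library. Pgk1, the phosphoglycerate kinase, was called lower in NaJa-D, at -0.32 and -0.49, with libraries that overlapped at day 1 for both Pgk1 and Pkm. The calls were lower for Gpi1, the isomerase of the second step, at day 5 in each line, at -0.25, -0.33 and -0.36. In NaJa-F the calls of Hk1, Pkm and Gpi1 were lost without encorafenib day 5 replicate 1. Tpi1 and Pfkl, the liver-type phosphofructokinase, were called only in NaJa-D at day 5, at -0.34 and -0.56. Aldoa was lower at day 5 in NaJa-D (-0.32 (adjusted p 0.00962)) and NaJa-G (-0.38 (adjusted p 0.00378)), and Pgam1 at day 1 in NaJa-G (-0.36 (adjusted p 0.00291)). For Gapdh the log2 fold changes ran from -0.30 to -0.04 with no call.

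A few enzymes were called higher instead, more of them at day 1 than at day 5. Their shares at day 1 were below or close to those of all genes given above, so the values describe single genes. Aldoc, the brain-type aldolase, was at 3.51, 2.84 and 2.71 CPM in NaJa-G with DMSO and at 12.6, 12.6 and 11.7 CPM with encorafenib at day 1. In NaJa-D it went from 5.65, 6.38 and 3.98 CPM to 12.3, 11.4 and 14.1 CPM and in NaJa-F from 4.75, 3.61 and 3.96 CPM to 8.70, 9.02 and 8.20 CPM. All treated libraries lay above all controls of their line, by 1.25 (adjusted p 2.23e-08), 1.09 (adjusted p 2.89e-07) and 2.02 (SE 0.14, adjusted p 4.63e-13) on the log2 scale. At day 5 the controls had themselves reached 19.9, 22.1 and 22.2 CPM in NaJa-D, 10.6, 9.91 and 9.70 CPM in NaJa-F and 9.23 and 12.3 CPM in NaJa-G, and the difference was -0.17 (adjusted p 0.146), 0.24 (adjusted p 0.161) and -0.42 (adjusted p 0.00479). The last call was lost without NaJa-G DMSO day 5 replicate 3 or encorafenib day 5 replicate 2, at -0.62 to -0.21 over the fits without 1 library.

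Pfkm, the muscle-type phosphofructokinase, was also higher at day 1 in each line, by 0.86 (adjusted p 3.93e-10), 0.38 (adjusted p 2.72e-05) and 0.75 (adjusted p 3.70e-12). At day 5 its direction differed between lines. The NaJa-D libraries were at 18.95, 20.1 and 20.3 CPM in DMSO and 24.1, 22.1 and 24.2 CPM with encorafenib (0.24 (adjusted p 0.00632)), and the NaJa-F libraries at 33.5, 32.5 and 32.7 CPM and 25.7 and 24.9 CPM (-0.38 (adjusted p 0.000223)). The groups did not overlap in either line, but the NaJa-D call was lost in 5 of 6 fits without 1 library. In NaJa-G at day 5 they overlapped, at 47.8 and 60.1 CPM in DMSO and 55.01, 57.9 and 54.2 CPM with the drug. At day 1 Pfkm rose from 13.7, 14.5 and 13.7 CPM to 27.2, 25.4 and 23.3 CPM in NaJa-D, from 25.5, 24.4 and 26.7 CPM to 34.3, 33.8 and 31.5 CPM in NaJa-F and from 44.1, 43.5 and 45.6 CPM to 74.8, 75.3 and 74.1 CPM in NaJa-G.

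Pfkp, the platelet-type enzyme, was higher at day 1 in NaJa-F (0.33 (adjusted p 6.46e-06)) and NaJa-G (0.77 (adjusted p 6.81e-14)) and lower at day 5 in NaJa-D (-0.42 (adjusted p 1.42e-07)). Pfkm and Pfkp each overlap a counted gene on the opposite strand, Senp1 and Pitrm1, as do Tpi1 and Ankrd37, with Spsb2 and Ufsp2. The use of strand in counting was not stated. Eno2 was higher in NaJa-G on both days, by 0.94 (adjusted p 5.00e-05) and 0.94 (adjusted p 9.63e-05), the treated libraries lying at 3.81, 5.23 and 4.01 CPM at day 1 and 5.70, 5.79 and 5.97 CPM at day 5. In NaJa-D at day 1 its 0.91 (adjusted p 0.00768) came from libraries at 2.69, 2.76 and 1.13 CPM against 1.07, 1.08 and 1.16 CPM, which overlap, and the call was lost in 5 of 6 fits without 1 library.

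Of the 3 genes that control flux, 1 rose and the others fell. Pfkfb3 makes fructose 2,6-bisphosphate, the strongest activator of phosphofructokinase. In NaJa-G it was at 17.8, 17.8 and 18.05 CPM in DMSO and 42.997, 44.2 and 41.9 CPM with encorafenib at day 1, and at 13.3 and 14.01 CPM and 51.1, 47.9 and 45.99 CPM at day 5. In NaJa-F it was at 25.99, 25.2 and 25.6 CPM and 40.9 and 40.3 CPM at day 5. No treated library overlapped its controls. The rise was 0.64 (adjusted p 1.33e-12) and 0.67 (adjusted p 1.74e-11) in NaJa-F, 1.27 (SE 0.05, adjusted p 9.90e-20) and 1.82 (SE 0.05, adjusted p 5.08e-21) in NaJa-G, and 0.31 (adjusted p 2.39e-06) in NaJa-D at day 1, with 0.09 (adjusted p 0.106) there at day 5.

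Ldha was lower in NaJa-D, by -0.60 (adjusted p 1.82e-06) and -0.69 (adjusted p 2.79e-07), and in NaJa-G, by -0.67 (adjusted p 1.58e-07) and -0.81 (adjusted p 5.27e-08). In NaJa-F it gave -0.26 (adjusted p 0.0218) and -0.27 (adjusted p 0.0369). Pdk1, the kinase that shuts pyruvate dehydrogenase and so diverts pyruvate from the mitochondria, was lower in the same 2 lines. The log2 fold changes were -0.30 (adjusted p 0.000425) and -0.70 (adjusted p 4.02e-10) in NaJa-D and -0.44 (adjusted p 1.63e-06) and -0.68 (adjusted p 4.72e-09) in NaJa-G, against -0.07 and 0.10 in NaJa-F, neither called.

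Egln3, which encodes the prolyl hydroxylase PHD3 and is itself induced by HIF, had the largest fall of the module in NaJa-G. The gene (ENSMUSG00000035105, chromosome 12, 54178981 to 54203860, GRCm38) was at 11.4, 9.11 and 9.41 CPM in NaJa-G with DMSO at day 1 and at 1.81, 1.74 and 1.962 CPM with encorafenib, and at 7.24 and 8.12 CPM and 1.92, 1.98 and 2.24 CPM at day 5. The NaJa-D libraries were at 2.70, 2.65 and 1.87 CPM in DMSO and 1.28, 1.76 and 1.35 CPM with encorafenib at day 1, and at 3.19, 4.43 and 3.67 CPM and 1.37, 1.23 and 1.25 CPM at day 5. The NaJa-F libraries were at 2.08, 2.36 and 1.99 CPM and 1.24, 1.12 and 0.836 CPM at day 1, and at 2.18, 2.28 and 2.26 CPM and 0.917 and 0.649 CPM at day 5. In each of the 6 comparisons every treated library was below every control, though NaJa-D at day 1 came near to overlap. The log2 fold changes were -0.72 (SE 0.19, adjusted p 0.00221) and -1.52 (SE 0.18, adjusted p 4.15e-08) in NaJa-D, -1.02 (SE 0.19, adjusted p 8.06e-05) and -1.53 (SE 0.25, adjusted p 2.05e-05) in NaJa-F, and -2.44 (SE 0.14, adjusted p 3.07e-15) and -1.91 (SE 0.14, adjusted p 2.88e-12) in NaJa-G. The NaJa-D call at day 1 was lost in 3 of 6 fits without 1 library, at -0.92 to -0.62, and in the fit of only its own pair of groups.

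The other genes of this group moved little. Egln1, the main oxygen-sensing hydroxylase PHD2, was called in none of the 6 comparisons, with log2 fold changes from -0.13 to 0.14. Hif1a, the HIF-1 alpha subunit, which is regulated mainly at the protein level, was lower in NaJa-G at day 5 (-0.27 (adjusted p 0.00113)), a call lost without DMSO day 5 replicate 1. In the remaining 5 comparisons its log2 fold changes lay between -0.10 and 0.15.

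**Figure D3:**
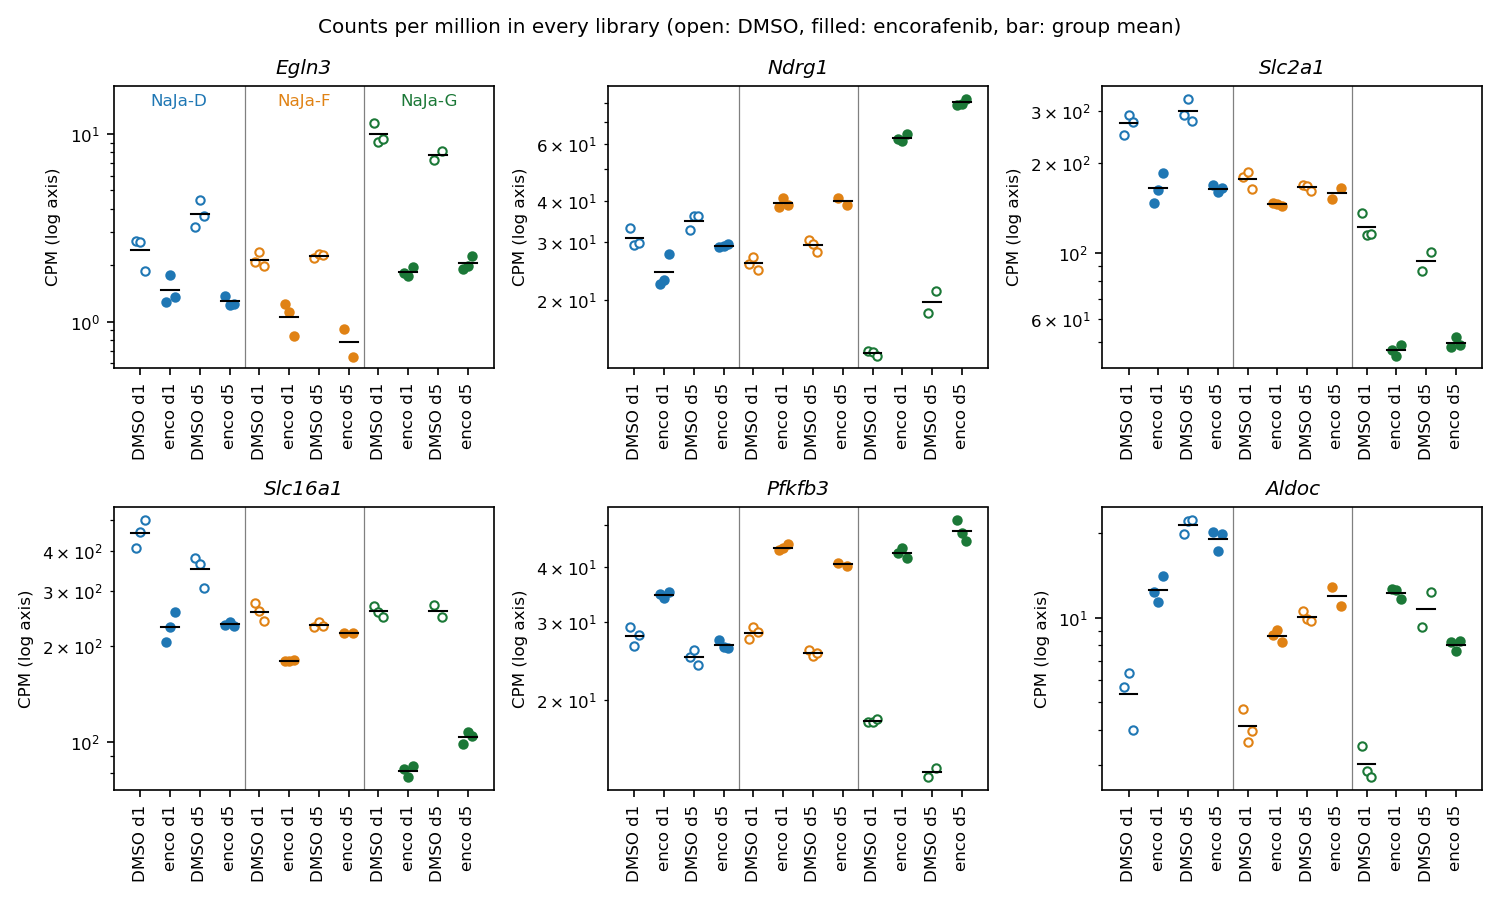
CPM (log axis) of Egln3, Ndrg1, Slc2a1, Slc16a1, Pfkfb3 and Aldoc in each of the 34 libraries, by line, treatment (open DMSO, filled encorafenib) and day, with bars at the group means. Egln3 falls with encorafenib in every line and day, and Ndrg1 falls in NaJa-D and rises in NaJa-F and NaJa-G.

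The 11 hypoxia response genes did not share a direction. In NaJa-D 3 were lower and 2 higher at day 1, and 5 lower and 1 higher at day 5. In NaJa-F the counts were 2 lower and 2 higher, then 0 lower and 3 higher, and in NaJa-G 1 lower and 4 higher on each day. In NaJa-G at day 1 the share higher was 36.4%, close to the 35.3% of all genes, and the share lower 9.09%, beside 28.7%. In NaJa-D at day 5 the hypoxia response genes had 45.5% lower and 9.09% higher, beside 14.7% and 18.3% of all genes. At day 1 in that line the shares were 27.3% lower and 18.2% higher, beside 21.2% and 23.7%. NaJa-F had 18.2% in each direction at day 1, beside 12% lower and 17.5% higher among all genes. Its day 5 shares were 0% lower and 27.3% higher, beside 8.50% and 9.70%. For NaJa-G at day 5 the shares were 9.09% lower and 36.4% higher, beside 24.7% and 28.5%. Ndrg1, a stress-induced gene and one of the most used hypoxia markers, took opposite directions in the lines. The gene (ENSMUSG00000005125, chromosome 15, 66929318 to 66969640, GRCm38) was at 33.2, 29.3 and 29.8 CPM in NaJa-D with DMSO at day 1 and at 22.3, 23.1 and 27.6 CPM with encorafenib, and at 32.7, 35.96 and 36.03 CPM and 28.9, 29.2 and 29.7 CPM at day 5. In NaJa-F it went from 25.7, 27.1 and 24.7 CPM to 38.3, 40.95 and 39.01 CPM at day 1 and from 30.4, 29.6 and 27.99 CPM to 40.97 and 38.98 CPM at day 5. In NaJa-G it went from 13.99, 13.9 and 13.5 CPM to 61.8, 61.1 and 64.2 CPM and from 18.3 and 21.2 CPM to 78.9, 79.3 and 82.1 CPM. Treated libraries were below all controls in NaJa-D and above all controls in NaJa-F and NaJa-G, on both days.

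The log2 fold changes of Ndrg1 were -0.35 (SE 0.07, adjusted p 8.23e-05) and -0.25 (SE 0.06, adjusted p 0.00214) in NaJa-D, 0.61 (SE 0.06, adjusted p 5.96e-09) and 0.45 (SE 0.07, adjusted p 1.28e-05) in NaJa-F, and 2.17 (SE 0.07, adjusted p 3.32e-21) and 2.02 (SE 0.07, adjusted p 2.68e-19) in NaJa-G. The last 2 correspond to 4.51-fold and 4.05-fold. NaJa-G started from the lowest control level and ended at the highest treated level of the 3 lines. Ndrg1 in NaJa-D at day 5 lost its call without DMSO day 5 replicate 2 or replicate 3, at -0.30 to -0.22.

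P4ha1 and P4ha2 encode the catalytic subunits of collagen prolyl hydroxylase. P4ha1 was at 96.8, 101 and 85.5 CPM in NaJa-D with DMSO at day 5 and 59.2, 55.8 and 56.02 CPM with encorafenib (-0.73 (adjusted p 1.39e-09)), whereas NaJa-G held 50.1 and 52.1 CPM and 64.4, 67.01 and 65.6 CPM (0.36 (adjusted p 0.000238)). These groups did not overlap and moved in opposite directions, while NaJa-F overlapped at 45.2, 44.5 and 43.4 CPM and 44.4 and 42.6 CPM. The day 1 libraries went from 81.1, 92.9 and 91.7 CPM to 55.05, 60.1 and 68.5 CPM in NaJa-D, from 47.9, 47.6 and 43.4 CPM to 39.95, 38.6 and 37.6 CPM in NaJa-F and from 62.5, 56.6 and 54.4 CPM to 51.1, 47.3 and 53.6 CPM in NaJa-G. At day 1 P4ha1 was lower in NaJa-D (-0.54 (adjusted p 2.52e-07)) and NaJa-F (-0.26 (adjusted p 0.00540)), the latter lost in 4 of 6 fits without 1 library. P4ha2 was higher in NaJa-G at day 5, from 22.9 and 22.2 CPM to 40.2, 44.7 and 42.9 CPM (0.92 (adjusted p 9.67e-12)), in NaJa-F at day 5 (0.31 (adjusted p 0.000520)) and in NaJa-D on both days (0.26 (adjusted p 0.000388) and 0.19 (adjusted p 0.00760)). The NaJa-D calls were lost in 2 and 4 of 6 fits without 1 library, and the NaJa-F call without encorafenib day 5 replicate 1.

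Vegfa, the main angiogenic factor of the HIF response, was lower at day 1 in each line, by -0.38 (adjusted p 2.28e-05), -0.52 (adjusted p 3.38e-07) and -0.56 (adjusted p 2.02e-08). At day 5 it was lower in NaJa-D (-0.51 (adjusted p 5.72e-07)) and gave -0.03 and -0.07 in NaJa-F and NaJa-G. Bnip3, which acts in the removal of mitochondria, was higher at day 1 in NaJa-G (0.94 (adjusted p 2.94e-09)) and lower at day 5 in NaJa-D (-0.79 (adjusted p 4.57e-08)). In NaJa-F its 0.37 at day 1 was lost in all 6 fits without 1 library. Ddit4, an inhibitor of mTORC1 signalling, was higher at day 1 in NaJa-D (0.65 (adjusted p 0.000474)) and NaJa-G (1.08 (adjusted p 1.55e-07)) and at day 5 in NaJa-F (0.58 (adjusted p 0.00366)). The first of these calls was lost without the library of conflicting labels, and the last in 3 of 5 fits without 1 library.

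Car9, a membrane carbonic anhydrase, was called once, in NaJa-G at day 5, where it lay at 0.268 and 0.194 CPM in DMSO and 0.603, 0.562 and 0.624 CPM with encorafenib (1.37 (adjusted p 6.61e-05)). It stayed below 1 CPM in every NaJa-G library. Kdm3a, a histone demethylase, was lower at day 5 in NaJa-D (-0.47 (adjusted p 0.000115)) and NaJa-G (-0.66 (adjusted p 2.54e-06)). Mxi1, an antagonist of MYC, was higher in NaJa-G at day 1 (0.29 (adjusted p 0.000273)). Higd1a, a mitochondrial protein induced by hypoxia, and Ankrd37, a small ankyrin repeat gene, were called in none of the 6 comparisons.

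Whether the lines differed in their answer was tested on the differences of the log2 fold changes themselves. The response of NaJa-F differed from that of NaJa-D for 6 genes at day 1 (8.79% of all genes were called) and 13 at day 5 (8.85% of all genes). That of NaJa-G differed from that of NaJa-D for 13 at day 1 (36.4% of all genes) and 10 at day 5 (21.9% of all genes), and from that of NaJa-F for 15 at day 1 (33.5% of all genes) and 14 at day 5 (24.2% of all genes). The 13 genes of the day 5 comparison of NaJa-F with NaJa-D make up 37.1% of the module. Of these, 12 had a higher value in NaJa-F, that is, a weaker fall or a rise. They include Slc16a3 (1.33 (adjusted p 0.00170)), Slc2a1 (0.79 (adjusted p 1.88e-05)), Slc16a1 (0.48 (adjusted p 0.00291)), Hk2 (0.65 (adjusted p 1.96e-06)), Pdk1 (0.79 (adjusted p 8.15e-07)) and Bnip3 (0.92 (adjusted p 3.76e-05)). The Slc16a3 and Slc16a1 differences were not called in 1 and 3 of 11 fits without 1 library. The day 1 count of 6 rose to 17 without NaJa-D encorafenib day 1 replicate 3.

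NaJa-G set itself apart from both other lines by a deeper fall of Egln3, Hk2, Slc16a1 and Slc2a1 at day 1 and by the larger rise of Pfkfb3 and Ndrg1 on both days. Against NaJa-D the difference at day 1 was -1.72 (SE 0.24, adjusted p 1.04e-06) for Egln3, -0.83 (adjusted p 2.39e-09) for Hk2, -0.69 (adjusted p 4.66e-06) for Slc16a1 and -0.65 (adjusted p 2.71e-05) for Slc2a1. For Ndrg1 it was 2.53 (SE 0.10, adjusted p 7.00e-17), and for Pfkfb3 0.96 (adjusted p 2.26e-12). For Slc16a3 no difference between these lines was called, its value at day 1 being -0.34 with a 95% interval from -0.74 to 0.06. At day 5 the Egln3 response of NaJa-G minus that of NaJa-D was -0.39 (95% interval -0.85 to 0.08) and was not called. The 3 comparisons of lines on a day share their response values and are not independent. Scaling by library size alone shifted the median of all genes by -0.13 in the day 1 comparison of NaJa-G with NaJa-D. The share of higher among all called genes went from 55.5% to 40.2% there, from 51.0% to 34.7% for NaJa-F with NaJa-D at day 1, and from 64.3% to 51.4% for NaJa-G with NaJa-D at day 5.

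**Figure D4:**
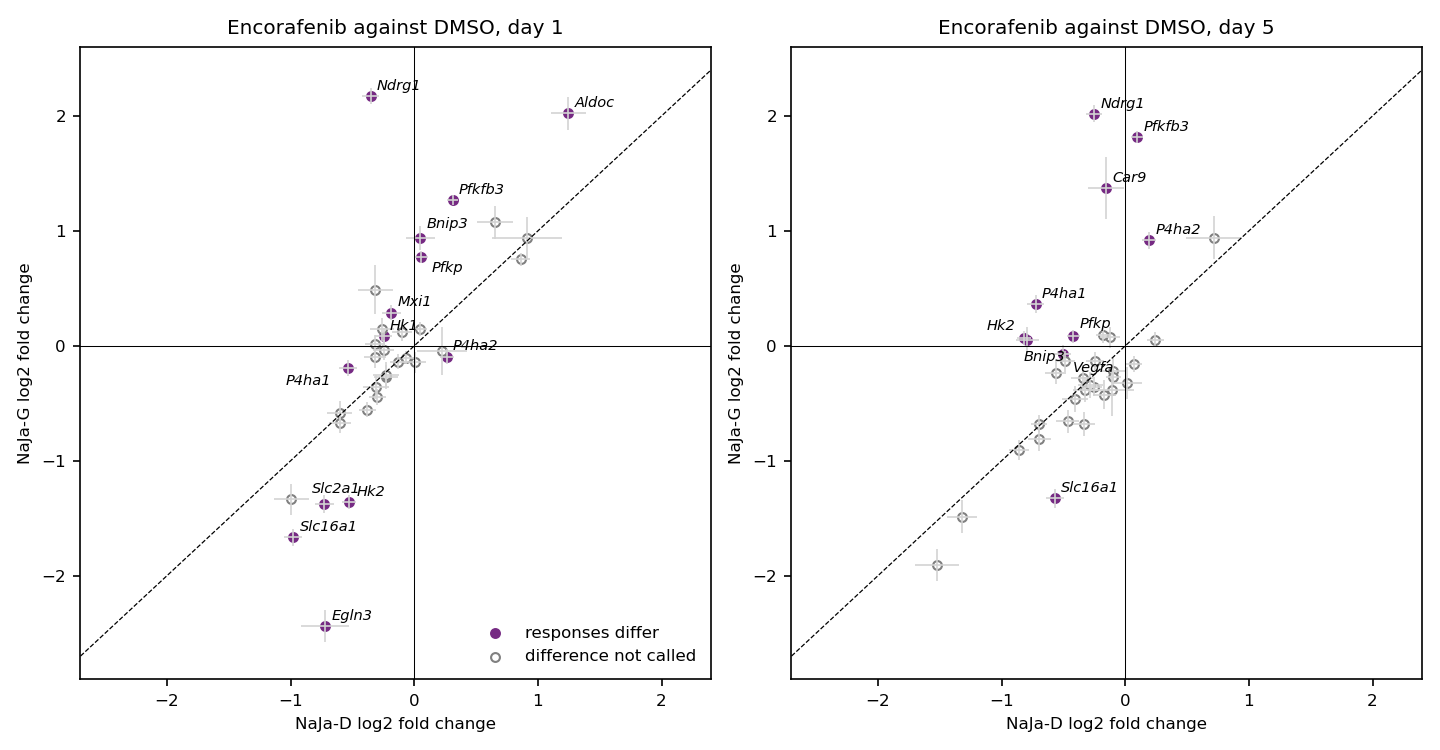
Log2 fold change of encorafenib over DMSO in NaJa-D (x axis) and NaJa-G (y axis) for the 35 genes at day 1 and day 5, with bars for the SE and a dashed line of equal response. Named points in purple differ between the lines at an adjusted p below 0.01, Ndrg1 and Pfkfb3 above the line on both days and Egln3 below it at day 1.

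The response also differed between days. The change from day 1 to day 5 was called for 6 genes in NaJa-D (7.29% of all genes), 3 in NaJa-F (5.88% of all genes) and 15 in NaJa-G (31.7% of all genes). Aldoc and Pfkm were lower at day 5 than at day 1 in this measure in each line. For Aldoc the differences were -1.42 (adjusted p 1.14e-06) in NaJa-D, -0.85 (adjusted p 0.00231) in NaJa-F and -2.45 (adjusted p 3.31e-11) in NaJa-G, and for Pfkm -0.62 (adjusted p 0.000196), -0.76 (adjusted p 2.05e-06) and -0.70 (adjusted p 2.66e-07). Hk2 went the other way in NaJa-G (1.43 (adjusted p 9.26e-14)), as did P4ha2 (1.01 (adjusted p 1.77e-09)). The NaJa-F value of Aldoc was not called without encorafenib day 5 replicate 2 or DMSO day 1 replicate 2. These differences contain the change of the DMSO controls with time, given below.

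The second comparison asked how the lines differed without drug, over the mean of both days in DMSO. NaJa-F had 20 genes lower and 8 higher than NaJa-D (29.0% and 32.6% of all genes), and NaJa-G had 15 lower and 8 higher than NaJa-D (34.1% and 33.3% of all genes). NaJa-G had 7 lower and 14 higher than NaJa-F (29.2% and 25.2% of all genes). The medians were -0.27, -0.13 and 0.10 on the log2 scale, beside 0.02, 0.01 and -0.01 over all genes. Scaling by library size alone moved the median of all genes by 0.12 in both comparisons with NaJa-D and that of the module to -0.15 and -0.0099, and the module then had 16 lower and 10 higher in NaJa-F and 14 lower and 12 higher in NaJa-G. The share of higher among all called genes went from 52.9% to 66.5% and from 49.4% to 59.9% under that scaling.

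The largest line difference was that of Slc16a3. Its NaJa-F DMSO libraries lay at 2.20, 2.37 and 1.92 CPM at day 1 and 2.85, 2.99 and 2.27 CPM at day 5. The NaJa-D libraries lay at 16.4, 18.7 and 13.1 CPM and 24.7, 28.3 and 22.6 CPM, and those of NaJa-G at 21.2, 17.3 and 17.7 CPM and 17.2 and 22.4 CPM. NaJa-F was below both other lines without overlap, by -3.05 (SE 0.13, adjusted p 9.50e-18) against NaJa-D, and NaJa-G was above NaJa-F by 2.99 (SE 0.14, adjusted p 1.25e-17). NaJa-D and NaJa-G differed by -0.06 (95% interval -0.23 to 0.12), which was not called. With encorafenib, Slc16a3 lay at 6.76, 8.01 and 9.74 and 9.94, 10.1 and 9.93 CPM in NaJa-D, 1.92, 1.65 and 1.86 and 2.38 and 3.07 CPM in NaJa-F and 7.5000, 6.62 and 8.50 and 6.30, 7.93 and 7.01 CPM in NaJa-G at day 1 and day 5, so NaJa-F remained below both other lines. Slc2a1 and Slc16a1 were highest in NaJa-D, where Slc2a1 exceeded NaJa-F (-0.74 (adjusted p 2.11e-12)) and NaJa-G (-1.42 (adjusted p 1.13e-18)).

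P4ha2, Car9 and Egln3 set NaJa-G apart from both other lines. P4ha2 fell in order from NaJa-D, at 114, 134 and 134 CPM at day 1 and 108, 121 and 107 CPM at day 5, over NaJa-F, at 80.8, 79.8 and 78.4 and 70.8, 70.9 and 68.3 CPM, to NaJa-G, at 30.99, 29.7 and 28.7 and 22.9 and 22.2 CPM. The lines did not overlap, and the differences were -0.67 (adjusted p 1.43e-14) between NaJa-F and NaJa-D, -2.20 (adjusted p 1.55e-25) for NaJa-G against NaJa-D and -1.53 (adjusted p 1.44e-21) for NaJa-G against NaJa-F. Car9 was at 0.366, 0.321 and 0.499 CPM at day 1 and 0.268 and 0.194 CPM at day 5 in NaJa-G. In NaJa-D it was at 1.86, 1.76 and 1.89 CPM and 1.29, 1.92 and 1.44 CPM, and in NaJa-F at 1.58, 1.48 and 1.64 CPM and 0.987, 1.07 and 1.13 CPM. NaJa-G was lower than NaJa-D by -2.47 (adjusted p 2.44e-14) and lower than NaJa-F by -2.10 (adjusted p 1.60e-12), with no overlap.

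Egln3 ran opposite to these, with NaJa-G above NaJa-D by 1.56 (adjusted p 1.42e-14) and above NaJa-F by 2.00 (adjusted p 6.57e-17). NaJa-F and NaJa-D overlapped and differed by -0.44 (adjusted p 0.00134), a call lost with scaling by library size alone. Eno2 was lowest in NaJa-F, at 0.532, 0.475 and 0.616 CPM at day 1 and 0.462, 0.664 and 0.605 CPM at day 5, against 1.79, 2.42 and 2.84 and 2.61 and 3.44 CPM in NaJa-G and 1.07, 1.08 and 1.16 and 1.77, 1.84 and 1.44 CPM in NaJa-D. The differences were -1.28 (adjusted p 2.26e-05) between NaJa-F and NaJa-D, 2.23 (adjusted p 3.16e-10) for NaJa-G against NaJa-F and 0.95 (adjusted p 3.52e-05) for NaJa-G against NaJa-D, the last with overlapping libraries.

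Further genes marked single lines. NaJa-F was lower than NaJa-D in P4ha1 (-1.01 (adjusted p 1.35e-16)) and Vegfa (-0.77 (adjusted p 1.90e-14)) and higher in Pfkm (0.80 (adjusted p 5.56e-14)), Pfkp (0.51 (adjusted p 6.57e-13)), Hk2 (0.40 (adjusted p 3.23e-10)) and Pgam1 (0.35 (adjusted p 9.13e-05)). NaJa-G was lower than NaJa-D in Ndrg1 (-0.99 (adjusted p 2.94e-16)) and higher in Pfkm (1.56 (adjusted p 7.26e-21)) and Pfkp (0.62 (adjusted p 2.29e-14)). Compared with NaJa-F, NaJa-G was lower in Pfkfb3 (-0.79 (adjusted p 2.77e-17)) and Ndrg1 (-0.74 (adjusted p 3.43e-13)) and higher in Pfkm (0.75 (adjusted p 2.06e-14)). Hif1a was lower in NaJa-F than in NaJa-D (-0.39 (adjusted p 3.04e-09)), and NaJa-G exceeded NaJa-F in Gapdh, Pkm, Tpi1, Gpi1 and Ldha, by 0.25, 0.26, 0.26, 0.34 and 0.42. The Gapdh call was lost in 6 of 11 fits without 1 library.

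The third comparison followed the untreated cultures from day 1 to day 5 in DMSO. In NaJa-D, 12 genes were higher and 3 lower (13.7% and 15.3% of all genes), in NaJa-F 9 higher and 2 lower (9.73% and 7.01% of all genes), and in NaJa-G 9 higher and 10 lower (17.2% and 16.8% of all genes). Of the 11 hypoxia response genes 6, 4 and 5 were higher in NaJa-D, -F and -G, and of 48 further such genes outside the module the same lines had 14 higher and 9 lower, 10 higher and 6 lower, and 12 higher and 15 lower. The medians of the 35 genes were 0.18, -0.03 and -0.15 on the log2 scale, beside 0.01, 0.00 and 0.00 over all genes, and 0.35, 0.05 and -0.09 with scaling by library size alone. In NaJa-D, scaling by library size alone moved the median of all genes by 0.18, giving 21 higher and 1 lower, and the share of higher among all called genes went from 47.4% to 81.7%. In NaJa-F and NaJa-G that share went from 58.1% to 78.6% and from 50.6% to 62.4%, with 10 higher and 0 lower and 10 higher and 9 lower in the module.

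Across the lines, 7 of the 35 genes (20%) were higher at day 5 in all 3, namely Aldoc, Bnip3, Kdm3a, Pdk1, Pfkp, Pfkm and Mxi1, and 0 were lower in all 3. Of all genes, 3.76% were higher and 3.83% lower in all 3. The Mxi1 calls in NaJa-F and NaJa-G were lost with DESeq2, with RLE scaling and in 5 of 6 and 4 of 5 fits without 1 library. In NaJa-G the Pfkm call was lost without DMSO day 5 replicate 3, and the Bnip3 call without DMSO day 5 replicate 1.

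Aldoc rose most in each line, by 2.02 (SE 0.14, adjusted p 8.54e-12) in NaJa-D, 1.31 (SE 0.14, adjusted p 5.64e-08) in NaJa-F and 1.83 (SE 0.16, adjusted p 2.13e-10) in NaJa-G. Bnip3 was at 15.4, 14.1 and 10.1 CPM in NaJa-D at day 1 and 32.5, 40.7 and 45.03 CPM at day 5. In NaJa-F it went from 11.2, 11.1 and 10.05 CPM to 18.7, 18.6 and 18.6 CPM and in NaJa-G from 13.4, 11.9 and 11.7 CPM to 17.6 and 17.03 CPM. The days did not overlap in any line, and NaJa-D rose most, by 1.57 (adjusted p 1.00e-11) against 0.79 (adjusted p 3.40e-06) and 0.49 (adjusted p 0.00106). Pdk1 rose from 49.98, 46.1 and 40.7 CPM to 70.5, 74.7 and 81.1 CPM in NaJa-D, from 34.5, 36.01 and 31.8 CPM to 46.03, 46.5 and 44.5 CPM in NaJa-F and from 35.2, 31.5 and 32.1 CPM to 48.5 and 43.03 CPM in NaJa-G, again without overlap. On the log2 scale the rise was 0.73 (adjusted p 9.50e-10) in NaJa-D, 0.42 (adjusted p 1.98e-05) in NaJa-F and 0.47 (adjusted p 5.86e-06) in NaJa-G. Kdm3a gave 0.72 (adjusted p 4.79e-07), then 0.58 (adjusted p 2.24e-05), then 0.69 (adjusted p 3.50e-06), and Pfkp 0.52, 0.39 and 0.49.

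Ddit4 rose in NaJa-D (1.61 (adjusted p 8.16e-10)) and NaJa-G (1.55 (adjusted p 4.20e-09)) and gave 0.34 in NaJa-F. Vegfa rose in NaJa-D (0.98 (adjusted p 1.14e-11)) and NaJa-F (0.36 (adjusted p 0.000169)) and gave 0.20 in NaJa-G, and Ndrg1 rose in NaJa-G (0.52 (adjusted p 6.62e-06)). Egln3 rose in NaJa-D (0.62 (adjusted p 0.00317)), a call lost without the library of conflicting labels or DMSO day 5 replicate 2, and was lower in NaJa-G (-0.37 (adjusted p 0.00459)), a call lost in 5 of 7 alternative fits. Without the library of conflicting labels the NaJa-D count was 10 higher and 1 lower.

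In NaJa-G, Hk2 fell with time by -0.61 (adjusted p 5.50e-09), Gapdh by -0.56 (adjusted p 0.000402), Pgam1 by -0.45 (adjusted p 0.00243) and Higd1a by -0.45 (adjusted p 2.75e-06), while Higd1a rose in NaJa-D (0.27) and fell in NaJa-F (-0.21 (adjusted p 0.00665)). The NaJa-D call of Higd1a was lost without the library of conflicting labels, the NaJa-F call in 5 of 6 fits without 1 library, and the NaJa-G calls of Gapdh and Pgam1 without DMSO day 5 replicate 1. The NaJa-G group of day 5 has 2 libraries, and its count of 19, with 10 lower, fell to 11, with 4 lower, without replicate 1 and to 6, with 1 lower, when only the groups compared were in the fit. In NaJa-F that fit gave 10 higher and 6 lower. In NaJa-D, Slc16a1 (-0.38 (adjusted p 0.000182)), Hk1 (-0.23 (adjusted p 0.00940)) and Pfkfb3 (-0.17 (adjusted p 0.00739)) were lower. The Hk1 call was lost in all 6 fits without 1 library, and Pfkfb3 turned to 0.01 with scaling by library size alone. In NaJa-F, Car9 was lower (-0.56 (adjusted p 0.00511)), a call lost in 5 of 6 fits without 1 library. The DMSO libraries of both days are also the controls of the encorafenib comparisons, so the values of the 2 kinds of comparison are not independent.

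**Figure D5:**
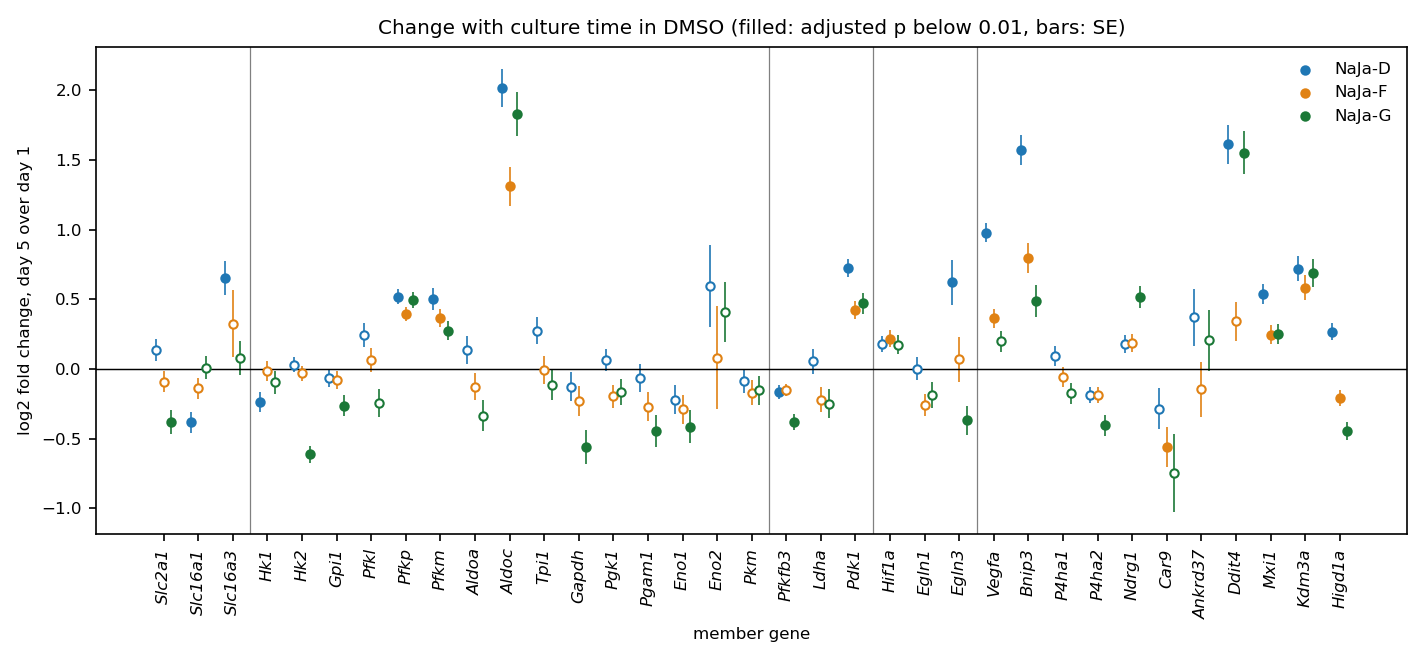
Log2 fold change of day 5 over day 1 in DMSO for the 35 genes in the 3 lines, with bars for the SE and filled points where the adjusted p was below 0.01. Aldoc, Bnip3, Kdm3a and Pdk1 lie above 0 in all lines, and Gapdh and Hk2 are lower in NaJa-G.

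Further genes of the pathway were counted in 3 wider lists, none of whose genes is in the module. Of 41 other genes of glycolysis and pyruvate metabolism 29 were in the table, of 16 regulators of HIF 15, and of 55 further hypoxia response genes 48. With encorafenib at day 1, the 29 metabolic genes had 10 higher and 6 lower in NaJa-D, for NaJa-F 6 and 2, and for NaJa-G 17 and 5. At day 5 they had 4 higher and 3 lower, 1 higher and 2 lower, and 6 higher and 8 lower. The 15 HIF regulators had 2 higher and 1 lower, 2 higher and 2 lower, and 7 higher and 2 lower at day 1, and 4 higher and 1 lower, 0 higher and 2 lower, and 5 higher and 2 lower at day 5. The 48 hypoxia response genes had 19 higher and 16 lower, 16 higher and 13 lower, and 23 higher and 15 lower at day 1, and 14 higher and 12 lower, 12 higher and 7 lower, and 22 higher and 13 lower at day 5. Among all genes, too, more were higher than lower at day 1 in each line. In NaJa-D, 23.7% of all genes were higher and 21.2% lower at day 1, beside 18.3% and 14.7% at day 5. NaJa-F had shares of 17.5% higher with 12% lower at day 1, then 9.70% with 8.50% at day 5. For NaJa-G the day 1 shares were 35.3% higher with 28.7% lower, and those of day 5 were 28.5% with 24.7%. The lists differ in size and were tested neither against each other nor against these shares.

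Of the 92 genes of these wider lists 4 were lower (4.35%) and 7 higher (7.61%) in all 6 encorafenib comparisons, beside 3.07% and 5.08% of all genes. Stc1, a secreted glycoprotein, was lower by far the most, with log2 fold changes of -4.94, -4.89, -3.70, -4.63, -4.29 and -4.005 at day 1 and day 5 of NaJa-D, -F and -G in turn. Treated Stc1 lay near the floor in NaJa-D, with means of 0.372 and 0.170 CPM, and in NaJa-F, at 1.09 and 0.807 CPM. Its treated NaJa-D libraries of day 1 ran from 0.169 to 0.736 CPM. For Stc2, a relative of Stc1, the log2 fold changes were -0.87, -1.77, -0.68, -0.50, -1.77 and -1.38. Pdp1, the phosphatase that reactivates pyruvate dehydrogenase and so opposes Pdk1, was lower by -0.50, -0.45, -0.35, -0.45, -0.52 and -0.28, and Hspa4l by -0.25, -0.28, -0.20, -0.30, -0.35 and -1.01. Among the genes that rose, Edn1, the vasoconstrictor endothelin, was higher by 1.25, 1.07, 1.22, 0.97, 2.03 and 2.37 and Ppp1r3b, a regulator of glycogen synthesis, by 1.02, 0.59, 0.71, 0.69, 2.13 and 2.21. Pdgfb, a growth factor, was higher by 0.65, 0.47, 0.75, 0.84, 1.48 and 1.64, and Insig2, an inhibitor of sterol synthesis, by 0.72, 0.63, 0.44, 0.44, 0.94 and 0.84. Dusp1, a phosphatase of MAP kinases, was higher by 1.15, 0.95, 0.88, 0.40, 2.26 and 1.69, Rragd, a GTPase of mTORC1 signalling, by 0.49, 0.78, 0.70, 1.22, 1.21 and 1.35 and the transcription factor Klf6 by 0.35, 0.43, 0.41, 0.35, 0.82 and 0.74. Ppp1r3b and Rragd were low in the controls, with DMSO group means of 0.874 to 1.23 and 0.976 to 1.24 CPM. Pdk1 and Pdp1, which act in opposition on the same enzyme complex, were both lower in NaJa-D and NaJa-G. The other kinases of that complex differed, with Pdk2 higher in 5 of the 6 comparisons, Pdk4 higher in 2 and Pdk3 lower in 2. The other phosphatase, Pdp2, was lower in 4.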

How the data were processed

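Bulk RNA of 34 libraries was measured by sequencing. The deposited values are raw gene counts, which the authors made from reads trimmed with Trimmomatic 0.39 and aligned with STAR 2.5.2b to GRCm38, per the submitters' processing notes; the counting tool, its annotation and its use of strand are not given in the sources used here. The table had been filtered before deposit, with a smallest summed count of 360. Total counts of 46007050 to 80121299 per library limit precision only for the few genes near or below 1 CPM.

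Counts were scaled by TMM (factors 0.876 to 1.07) and fitted with limma-voom (limma 3.58.1, edgeR 4.0.16, R 4.3.3) as 1 model of 12 group means over all libraries, with two-sided tests and Benjamini-Hochberg adjustment over 14107 genes at 0.01. CPM per kilobase used exon lengths of GENCODE M21. The fit was also run on simulated counts in which all groups shared their means, except for a set of genes changed in 1 group. Such counts lack the wide differences between lines and treatments of these data, and no conclusion is drawn from them. Alternatives were edgeR quasi-likelihood, DESeq2 1.42.0, RLE scaling, scaling by library size alone, filterByExpr, a replicate block, only the groups compared, and each library left out in turn.

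Replicate numbers recur in every group, but deviations of same-numbered libraries correlated at r of -0.27 to 0.21, so the numbers were not taken to pair them. Values were named for up to 4 called genes at each end of every comparison of drug, lines and time, and every library was given for genes called in 1 direction in all 6 drug comparisons, in opposite directions in 2 lines on a day, or 2 log2 units apart between lines. The genes, roles and wider lists were chosen with earlier results of these data known. Promoters came from RefSeq tables on GRCm38.p6, in which 34 of 35 genes had an entry. Figures were drawn with matplotlib 3.10.9 (Python 3.11.15).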

Additional observations from a re-analysis of the deposited data

Results flagged for a closer look

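The response of Ndrg1 to encorafenib differed between lines by a test of the difference itself (limma, adjusted over all genes) and had opposite directions in them. The difference in log2 fold change was 0.96 for NaJa-F minus NaJa-D and 2.53 for NaJa-G minus NaJa-D at day 1, and 0.70 and 2.27 at day 5. Pfkm moved up in NaJa-D and down in NaJa-F at day 5, with a difference of -0.62, and within NaJa-F it was higher at day 1 and lower at day 5, with a difference of -0.76. P4ha1 was lower in NaJa-D and higher in NaJa-G at day 5, with a difference of 1.09. Of the 35 genes, 1 was called in opposite directions in 2 lines at day 1 and 3 at day 5. The shares over all genes were 1.45% and 1.79%. Aldoc in NaJa-G was higher with the drug at day 1 and lower at day 5, with a difference of -2.45, while its DMSO level rose between those days. The day 5 calls of Pfkm and Ndrg1 in NaJa-D and of Aldoc in NaJa-G were each lost in some fits without 1 library, as given above.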

How the results depend on the processing

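Of the 101 encorafenib calls, 82 held in each of the 7 alternative fits and 68 also without each library. Of 72 line calls 60 held throughout, of 45 calls over time in DMSO 24, and of 95 calls on differences in response 61. With only the groups compared, 11 genes in place of 20 were called in NaJa-D at day 1, 6 in place of 19 over time in NaJa-G, 3 in place of 6 for the day 1 response of NaJa-F against NaJa-D, 3 in place of 6 for day 5 against day 1 in NaJa-D and 7 in place of 3 for the same in NaJa-F. Scaling by library size alone gave 5 for the last. The reversed value was Pfkfb3 over time in NaJa-D DMSO, at 0.012 with scaling by library size alone. Without 1 library at a time, counts ran from 14 to 21 in NaJa-D at day 5 (23 with all), the lowest without DMSO day 5 replicate 3. They ran from 5 to 9 in NaJa-F at day 5 (9), lowest without encorafenib day 5 replicate 1, from 7 to 8 over time in NaJa-F (11), lowest without DMSO day 5 replicate 2, and from 11 to 18 over time in NaJa-G (19), lowest without DMSO day 5 replicate 1. For responses they ran from 4 to 17 for NaJa-F set against NaJa-D at day 1 (6), highest without NaJa-D encorafenib day 1 replicate 3, from 8 to 11 for NaJa-G against NaJa-F at day 5 (14), lowest without NaJa-G DMSO day 5 replicate 3, and from 1 to 4 for NaJa-F at day 5 against day 1 (3), lowest without encorafenib day 5 replicate 2. Without the library of conflicting labels, 26 genes were called for NaJa-F against NaJa-D, 22 for NaJa-G against NaJa-D and 11 over time in NaJa-D. For the day 1 responses, 4 in place of 6 were then called for NaJa-F against NaJa-D and 15 in place of 13 for NaJa-G against NaJa-D. The count for day 5 against day 1 in NaJa-D was 4 in place of 6, with 0 higher. With the replicate block the counts were 20 in NaJa-D at day 1, 22 at day 5, 10 in NaJa-F at day 1, 18 over time in NaJa-G and 11 for the day 5 response of NaJa-G against NaJa-F. No count moved by over 1.5 times under the block. The fits without 1 library or with only the groups compared hold fewer libraries, and the causes of the changes were not tested. Within the module depth limits Eno2, Car9, Ankrd37 and Egln3, the genes below 2 log2 CPM. In the wider lists Stc1, Ppp1r3b and Rragd lay near or below 1 CPM in some groups.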
